A study of Mus musculus with 20 samples.

Results

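Stretches of the genome that carried 5-formylcytosine (5fC) peaks in the hindbrain of Tdg null mouse embryos, and in no other null tissue profiled, were examined. A region was chosen by its peaks: it is an autosomal run of 100 bp bins, at least 300 bp long, that lay under a peak in all 4 Tdg null hindbrain libraries and touched no peak of the 2 null hearts, the 2 null carcasses or the single usable null liver. The rule found 2346 such hindbrain-only regions among the 58935 stretches of that length under peaks of all 4 null hindbrains, which is 3.98%. They summed to 1.07 Mb, or 0.0449% of the ungapped autosomes. Over all 20 libraries, 412470 separate autosomal stretches lay under at least 1 peak.

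WT and Tdg null embryos were collected at mid-gestation (E11.5), and 5fC was mapped by chemical pull-down and sequencing in 4 dissected parts, namely hindbrain, heart, liver and carcass. Both Tdg alleles of a null embryo lacked the sequence that encodes the enzyme's active domain, with a neomycin selection cassette in their place, throughout the body, and heterozygous parents were crossed to obtain such embryos. The 4 null and 4 WT hindbrains came from 8 embryos of 4 litters, 1 of each genotype per litter. Hearts, livers and carcasses came from 4 further embryos, 2 null and 2 WT, so the 3 tissues of an embryo share their source, and the embryo was taken as the replicate. No hindbrain came from these 4 embryos, so tissue and embryo cannot be told apart in any comparison of hindbrain with another tissue. The second null liver held 228 peaks, was excluded by the study for poor quality, and was not part of the rule. Carcass is what remained of the embryo after dissection, and its cell types are not given in the sources used here.

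5fC arises when TET enzymes oxidise 5-methylcytosine, which in most mammalian cells lies almost wholly at CG dinucleotides. TDG excises 5fC and starts base excision repair, so 5fC builds up in Tdg null tissue where TET enzymes have been at work. The embryonic hindbrain is a neural tube patterned by homeodomain factors such as HOX, PBX and MEIS proteins along its length, with dividing SOX-positive progenitors at the ventricle and young neurons outside them. In a bulk tissue, more 5fC in a few cells and less in many cells cannot be told apart.

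The central 300 bases of 8 regions show the kinds of sequence that the rule gathered. They were read from the plus strand of NCBIM37 (mm9), and capitals mark CG dinucleotides, the usual site of 5fC. The first 3 are repeats that peaks of WT hindbrains also covered, and the other 5 lie in introns and are not repeat sequence by the definition given further on.

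The middle of the longest region, chr13:74667001-74667300, lies in an intergenic stretch 45.4 kb from Zfp825 and holds 1 CG dinucleotide in the bases shown.
near Zfp825: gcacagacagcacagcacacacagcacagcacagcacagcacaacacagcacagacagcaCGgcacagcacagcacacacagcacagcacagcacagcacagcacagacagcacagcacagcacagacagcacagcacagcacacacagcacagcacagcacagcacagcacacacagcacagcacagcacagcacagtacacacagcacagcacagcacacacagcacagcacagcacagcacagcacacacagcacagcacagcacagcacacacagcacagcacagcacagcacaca

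The region at chr13:38430201-38430500, 6.50 kb outside Bmp6, lay under peaks of all 4 WT hindbrains and of no other WT library, yet it holds no CG dinucleotide.
near Bmp6: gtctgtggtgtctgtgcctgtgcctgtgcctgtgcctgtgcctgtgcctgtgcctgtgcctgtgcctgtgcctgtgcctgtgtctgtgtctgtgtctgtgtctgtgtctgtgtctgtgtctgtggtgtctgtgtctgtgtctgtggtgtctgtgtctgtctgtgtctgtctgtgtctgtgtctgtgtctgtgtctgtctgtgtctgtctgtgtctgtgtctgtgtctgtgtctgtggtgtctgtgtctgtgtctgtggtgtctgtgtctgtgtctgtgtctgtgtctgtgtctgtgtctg

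The region around chr11:106910501-106910800, in an intron of Bptf, repeats a unit of 53 bp, with 19 CG dinucleotides in the bases shown.
Bptf intron: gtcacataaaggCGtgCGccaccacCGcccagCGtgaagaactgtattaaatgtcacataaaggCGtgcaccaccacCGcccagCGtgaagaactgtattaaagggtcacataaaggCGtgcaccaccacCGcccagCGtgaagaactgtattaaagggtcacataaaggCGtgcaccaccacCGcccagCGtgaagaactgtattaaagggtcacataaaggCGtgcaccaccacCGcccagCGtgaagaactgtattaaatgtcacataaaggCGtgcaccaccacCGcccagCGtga

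The region around chr2:170184251-170184550, in an intron of Bcas1, is not repeat sequence and was touched by peaks of 3 WT hindbrains and of no other WT library.
Bcas1 intron: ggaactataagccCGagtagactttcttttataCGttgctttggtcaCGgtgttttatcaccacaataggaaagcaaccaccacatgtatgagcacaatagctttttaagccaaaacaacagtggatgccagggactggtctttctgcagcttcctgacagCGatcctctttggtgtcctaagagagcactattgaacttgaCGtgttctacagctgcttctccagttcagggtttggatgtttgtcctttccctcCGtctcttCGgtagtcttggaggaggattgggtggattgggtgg

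The next 4 come from genes of the nervous system. Each is the centre of a hindbrain-only region that no other such region of its gene exceeds in length. They are chr2:123993001-123993300 in Sema6d, chr2:52463551-52463850 in Cacnb4, chr1:169633651-169633950 in Lmx1a and chr6:135814051-135814350 in Grin2b. In the Cacnb4 sequence the capitals also mark TGATTGAC, a site bound by PBX and MEIS proteins.
Sema6d intron: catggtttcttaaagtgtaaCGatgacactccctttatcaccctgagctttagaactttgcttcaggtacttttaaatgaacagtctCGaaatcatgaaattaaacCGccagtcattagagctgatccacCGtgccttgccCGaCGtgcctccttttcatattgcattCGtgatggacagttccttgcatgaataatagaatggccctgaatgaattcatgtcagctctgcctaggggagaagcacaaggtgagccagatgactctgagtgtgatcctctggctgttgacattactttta
Cacnb4 intron: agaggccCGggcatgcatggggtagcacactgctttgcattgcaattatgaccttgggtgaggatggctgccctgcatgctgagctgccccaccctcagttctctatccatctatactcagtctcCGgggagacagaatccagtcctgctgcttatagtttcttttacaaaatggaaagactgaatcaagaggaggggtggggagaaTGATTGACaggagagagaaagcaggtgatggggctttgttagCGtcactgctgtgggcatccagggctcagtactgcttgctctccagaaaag
Lmx1a intron: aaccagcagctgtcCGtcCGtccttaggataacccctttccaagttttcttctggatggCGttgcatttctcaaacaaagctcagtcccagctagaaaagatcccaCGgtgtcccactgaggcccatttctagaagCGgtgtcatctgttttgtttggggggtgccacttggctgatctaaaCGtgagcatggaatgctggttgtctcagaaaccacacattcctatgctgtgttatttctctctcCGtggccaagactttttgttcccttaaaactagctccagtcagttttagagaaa
Grin2b intron: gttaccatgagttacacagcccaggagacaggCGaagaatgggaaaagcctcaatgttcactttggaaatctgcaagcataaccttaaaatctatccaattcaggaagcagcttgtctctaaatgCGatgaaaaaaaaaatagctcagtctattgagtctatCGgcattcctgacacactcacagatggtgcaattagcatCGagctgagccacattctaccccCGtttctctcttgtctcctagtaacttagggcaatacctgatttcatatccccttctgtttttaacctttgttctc

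The regions were short. Their median length was 400 bp, against 600 bp for all stretches under peaks of the 4 null hindbrains, and 81.8% of them measured 300 to 500 bp. Only 43 reached 1000 bp, and the longest measured 2700 bp. Just inside the length threshold, 559 regions measured 300 bp, and just outside it, 486 untouched stretches of 200 bp were left out. A further 40 stretches were left out because a single 100 bp bin lay under a peak of another null tissue. The regions were spread over all 19 autosomes, from 7.29 per 10 Mb on chromosome 3 to 13.0 on chromosome 11. Neighbouring regions lay a median of 551.6 kb apart, and 1.89% of neighbouring pairs were under 10 kb apart.

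Most null hindbrain stretches were shared with carcass. Of the 58935, 92.4% touched a peak of a null carcass, 67.1% a peak of a null heart and 39.9% a peak of the null liver. The 2346 are what these left. Peaks of another null tissue were often close by all the same, at a median distance of 2500 bp. Such a peak began directly beside 74 regions, whereas 1742 (74.3%) had none within 1 kb and 221 (9.42%) had none within 10 kb.

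How far the choice rests on single libraries was described by making the regions from 8 null libraries and looking them up in the ninth. Regions made without null hindbrain 1 were touched by its peaks in 64.7% of cases. The share was 74.3% for null hindbrain 2, 89.9% for null hindbrain 3 and 79.0% for null hindbrain 4. Among the other tissues, the left-out library touched 25.6% for heart 1, 2.37% for heart 2, 28% for carcass 1, 49.7% for carcass 2 and 2.66% for the liver. All 4 hindbrains lay above all 5 other libraries. Carcass 2, with 220444 peaks and 191.8 Mb covered, touched the largest share among the other tissues, and without it the rule would have found 4668 regions. These shares use the contrast that chose the regions and carry no test.

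**Figure D1:**
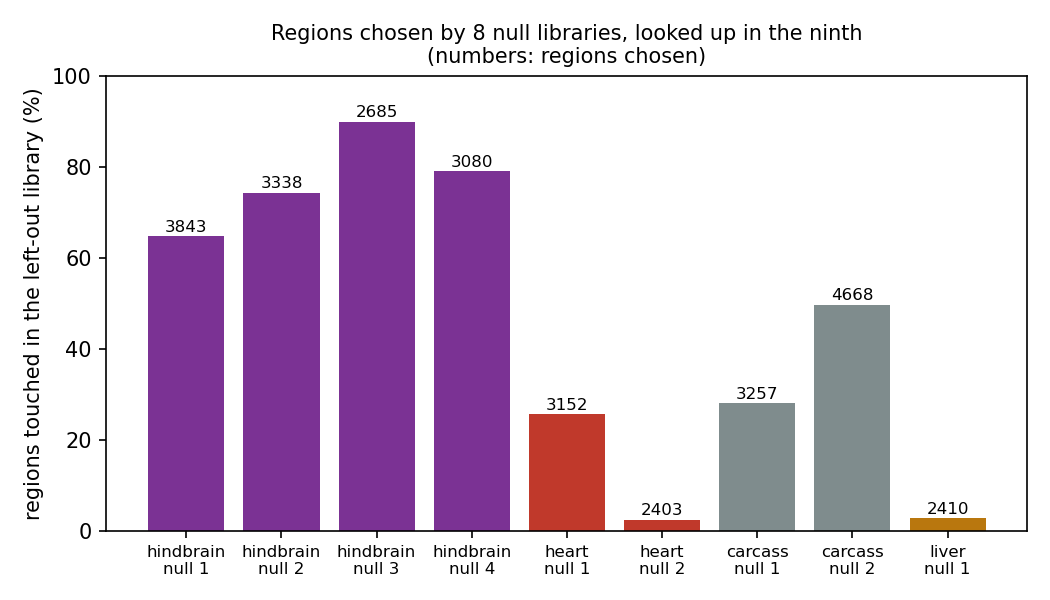
Bars give the percentage of regions, chosen by 8 of the 9 null libraries, that touched a peak of the left-out ninth (horizontal axis), and the number above each bar is the count of regions chosen by the 8. Hindbrain libraries (purple) lie at 64.7% to 89.9%, and the other tissues at 2.37% to 49.7%.

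The 10 WT libraries were not used by the rule, so their values did not enter the choice. Their embryos were littermates of the null embryos that the rule used, so litter is shared with the choice. WT libraries held fewer peaks, 1563 to 42013 each, than any of the 9 null libraries of the rule, and the deposited positions give no read depth, so a region without a WT peak may carry 5fC below detection. No WT peak touched 1717 of the regions (73.2%), against 53.6% of all null hindbrain stretches. At least 1 WT hindbrain touched 470 regions (20%), against 24.4% of all null hindbrain stretches. At least 1 WT hindbrain and no other WT library touched 282 (12.0%), against 10.9% of all null hindbrain stretches. Another WT tissue touched 347 (14.8%), against 35.5% of all null hindbrain stretches. The share touched in WT hindbrain alone thus lay near the background. All null hindbrain stretches were longer, with a median of 600 bp against 400 bp. The rule also left out stretches under null heart, carcass or liver peaks, which 96.0% of all null hindbrain stretches touched. The lower share under other WT tissues, and the higher share without a WT peak, may therefore be part of the choice. At least 2 WT hindbrains and no other WT library touched 62 regions (2.64%), against 2.66%. WT hindbrain 3, the library with 21606 peaks, was the only one to touch 174 of the 282, which is 7.42% of the regions against 6.57% of all null hindbrain stretches.

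A small class of regions goes against the description "only in hindbrain". Peaks of all 4 WT hindbrains touched 136 regions (5.80%), against 0.467% of all null hindbrain stretches. Peaks of all 4 WT hindbrains and of both WT hearts touched 109 regions (4.65%), against 0.215%, so 109 of the 127 null hindbrain stretches with this pattern were hindbrain-only regions by the null libraries. Peaks of all 10 WT libraries touched 23 (0.980%), against 0.0509%. These 109 regions carried peaks in WT hearts although they carried none in null hearts. They were longer than the rest, with a median of 600 bp, and 23 of them reached 1000 bp, out of 43 such regions in all.

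Much of this class was repeat sequence. A region was called repeat sequence where it held a tandem repeat (at least 80 of 100 neighbouring bases equal to those 2 to 100 bp further on) or where at least 50% of its 31-base words occurred elsewhere on the autosomes. This definition was made after the WT libraries had been seen. It took in 196 regions (8.35%), against 1.93% of the other null hindbrain stretches, 3.12% of regions chosen likewise for heart and 1.71% of those chosen for carcass. Tandem repeats made up 103 of the 196, and 20 of the 196 held no CG dinucleotide. Of the 109 regions in WT hindbrains and hearts, 71 were repeat sequence, and the other 38 had a median of 27.3% of their 31-base words elsewhere. The share of repeat sequence was 4.60% among the 1717 regions without a WT peak. The part that read mapping plays in these regions was not tested.

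Every WT hindbrain touched the repeat regions at a like rate. WT hindbrain 1 touched 49.0% of them, WT hindbrain 2 52.6%, WT hindbrain 3 55.1% and WT hindbrain 4 46.9%. The WT hearts touched 39.3% and 41.3%, whereas carcass and liver libraries touched 9.18% to 12.2%. The 2150 other regions were touched less often and with a wider relative spread, by 2.70%, 7.26%, 14.2% and 2.23% in the 4 WT hindbrains. The carcass libraries touched 6.84% and 6.60% of them, the hearts 2.23% and 1.95%, and the livers 1.35% and 0.651%. Over repeat regions the WT hindbrains lay above all other libraries, and over the other regions the hindbrains overlapped with carcass and with heart, WT hindbrain 4 and WT heart 1 having touched 48 each.

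**Figure D2:**
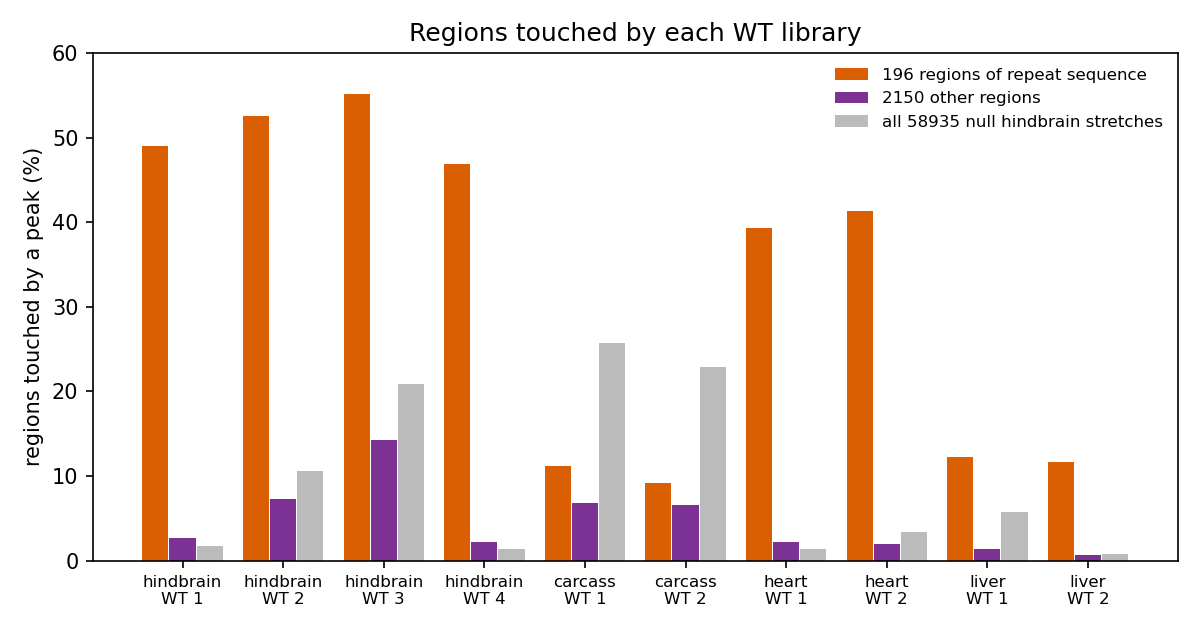
Bars give the percentage of regions touched by a peak of each WT library for the 196 regions of repeat sequence (orange), the 2150 other regions (purple) and all 58935 null hindbrain stretches (grey). Hindbrain and heart libraries touch 39.3% to 55.1% of the repeat regions, and no library touches more than 14.2% of the others. Stretches of the grey set are longer, with a median of 600 bp against 400 bp.

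To ask whether WT hindbrain peaks favoured these regions more than peaks of other WT tissues did, the peak bases inside them were divided by the number their share of the ungapped autosomes predicts, on a log2 scale. This enrichment was 7.95, 6.07, 5.29 and 7.89 in the 4 WT hindbrains, with a mean of 6.80 ± 1.33 (SD, n = 4). It was 5.96 and 5.98 in the WT hearts, 2.67 and 2.88 in the WT carcasses, and 2.67 and 5.69 in the WT livers. The hindbrain and heart values overlapped, and WT hindbrain 3 lay below both hearts. Averaged within each of the 2 other WT embryos the value was 4.31 ± 0.77 (SD, n = 2), so the hindbrain mean lay 2.49 higher (two-sided exact permutation test over embryos, p = 0.133, the smallest p that 4 against 2 allows). The enrichment was lower in libraries with more peaks of the same tissue, at 5.29 with 21606 peaks against 7.95 and 7.89 with 1564 and 1563 peaks in hindbrain, and at 2.67 with 16888 against 5.69 with 1901 in liver. The carcass libraries had the most peaks, 42013 and 35175, and the part of peak number in the difference between tissues was not tested.

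Without the regions of repeat sequence, the log2 enrichment was 6.52, 5.20, 4.81 and 6.39 in the WT hindbrains, 4.55 and 4.45 in the hearts, 2.57 and 2.81 in the carcasses, and 1.81 and 4.19 in the livers. All 4 hindbrains then lay above all 6 other libraries. The class shared by WT libraries was still partly present. WT hindbrains 1 and 4 touched 58 and 48 of the non-repeat regions, and 46 of these lay under all 4 WT hindbrains. The hearts touched 48 and 42, of which 38 lay under all 4 WT hindbrains and both hearts. The difference over embryos was 2.34 (exact permutation test, p = 0.133), close to that over all regions. In linear terms the WT hindbrains had 28.1 to 91.8 times the expected peak bases in these regions, the hearts 21.8 and 23.4 times, and the carcasses 5.93 and 6.99 times. Against the stretches under peaks of all 4 null hindbrains as the expectation, in place of the autosomes, the difference over all regions was 1.30 (exact permutation test, p = 0.267).

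**Figure D3:**
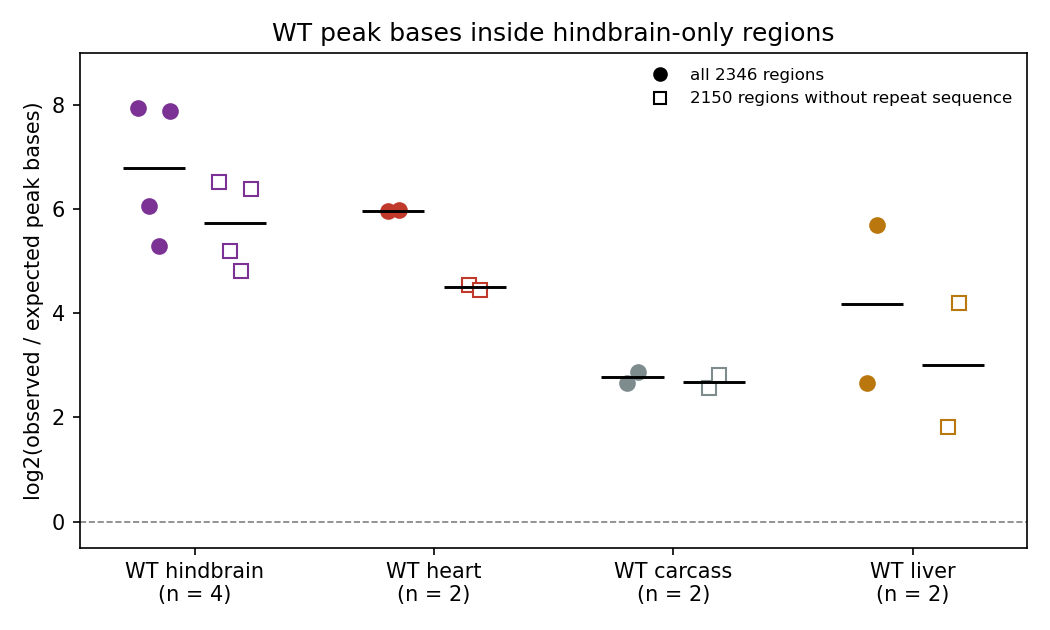
Each point is 1 WT library, the vertical axis is log2 of observed over expected peak bases inside the regions, and black bars are tissue means. Filled symbols include all 2346 regions, and open symbols leave out repeat sequence. With open symbols the 4 hindbrains (4.81 to 6.52) lie above the hearts (4.45 and 4.55), the carcasses and the livers. Open symbols still include 38 regions under peaks of all 4 WT hindbrains and both WT hearts.

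The same enrichment was then set against that over heart-only or carcass-only regions, within each library. Those regions lay under peaks of both null libraries of their tissue and touched no peak of the other null libraries of the rule. They thus needed peaks in 2 libraries in place of 4, and numbered 32200 for heart and 20059 for carcass, against 2346. The hindbrain-only minus heart-only difference was 9.78 ± 1.90 (SD, n = 4) in WT hindbrains, from 7.25 to 11.85, and 3.99 ± 0.86 (SD, n = 2) in WT hearts, from 3.38 to 4.60. The groups did not overlap, and they differed by 5.79 (exact permutation test, p = 0.133, the smallest possible). The hindbrain-only minus carcass-only difference was 9.32 ± 3.09 (SD, n = 4) in WT hindbrains and 0.46 ± 0.01 (SD, n = 2) in WT carcasses, and these differed by 8.86 (exact permutation test, p = 0.133). In WT hindbrain 1 no peak base fell in a carcass-only region, and its value was set to a floor of 300 bases, so its difference is a lower bound. WT hearts thus had more of their peak bases, relative to expectation, in hindbrain-only than in heart-only regions, which needed peaks in fewer null libraries. This held without repeat sequence (2.05 and 3.18). There the hearts touched 48 and 42 hindbrain-only regions, of which 38 lay under all 4 WT hindbrains and both WT hearts.

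Within WT hindbrains, the regions were compared with the other stretches under peaks of the 4 null hindbrains. The enrichment was 1.87 ± 1.65 (SD, n = 4) higher in the hindbrain-only regions, from 0.17 to 3.44, in the same direction in 4 of 4 libraries (exact permutation test by sign flips, p = 0.13, and 4 libraries allow no smaller value). Without repeat sequence this difference fell to 0.82 ± 1.19 (SD, n = 4), from -0.30 to 1.96 (exact sign-flip permutation test, p = 0.500), and leaving out 1 WT hindbrain moved it between 0.44 without WT hindbrain 4 and 1.20 without WT hindbrain 3. WT hindbrain peaks were thus not shown to favour the non-repeat regions over null hindbrain stretches shared with other tissues.

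The 10 longest regions lay largely in the class found in WT hearts. Of these, 8 were repeat sequence, and 8 lay under peaks of all 4 WT hindbrains and of both WT hearts. The longest, at chr13:74665801-74668500, was covered over 100% of its length in each WT hindbrain and over 92.6% and 100% in the WT hearts, with 0% in carcass and liver. The region near Tmem125, at chr4:118219701-118221500, repeats a unit of 88 bp with 56 CG dinucleotides, and was covered over 100% in every WT hindbrain and heart. A region of 1500 bp at chr6:29697601-29699100 lies in an intron of Smo, which encodes the Hedgehog signal transducer Smoothened, and was covered over 86.7% and 100% in the hearts. The region over Gm10800 and those whose nearest genes were Ly6c2 (21.0 kb away), Vmn1r238 (115.8 kb) and Stmn2 (262.8 kb) were covered over 100% in every WT hindbrain and heart. The region 31.6 kb from Podxl was covered in part in all 10 WT libraries, over 46.2% to 61.5% in the hindbrains and 53.8% and 46.2% in the hearts. The region near Coil lay under peaks of 3 WT hindbrains and 1 WT liver. Only the region of 1300 bp at chr7:108656701-108658000, over a coding exon of the phosphodiesterase gene Pde2a, was touched by no WT library, and it was not repeat sequence.

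Of the 10 regions under the most WT hindbrains and under no other WT tissue, 6 lay under all 4 WT hindbrains and 4 under 3 of them. All 6 were repeat sequence. Their nearest protein-coding genes were 1700018C11Rik, at 4.52 kb, Sec16b, at 308.7 kb, Dnttip2, at 22.9 kb, Cd200, at 28.8 kb, Dcdc2a, at 5.37 kb, and Bmp6, at 6.50 kb, and they measured 300 to 500 bp. Those closest to 1700018C11Rik, Cd200 and Bmp6 held no CG dinucleotide. The remaining 4 lay under WT hindbrains 1, 2 and 3. They were the Bptf intron, an intron of Tanc1, a synaptic scaffold gene, an intergenic site 23.6 kb from Pkp4 and the Bcas1 intron. The Tanc1, Pkp4 and Bcas1 regions were not repeat sequence, measured 600 to 800 bp and were covered over 50% to 100% of their length in those 3 libraries.

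By annotation, 1186 regions (50.6%) touched a gene, 814 (34.7%) an intron with no exon, 372 (15.9%) an exon and 283 (12.1%) a coding exon. Of the other null hindbrain stretches, 53.7% touched a gene, 13.1% an exon and 9.20% a coding exon, although these stretches are longer. By bases, coding exons made up 4.53% of the hindbrain-only regions, 2.67% of the other null hindbrain stretches and 1.44% of the ungapped autosomes. Heart-only regions had like shares, with 16.1% touching an exon, 12.1% a coding exon and 3.93% of bases in coding exons. For carcass-only regions these shares were 7.97%, 5.43% and 1.33%. Promoters, the 1000 bp before a transcription start, were touched by 3.45% of the regions and by 4.15% of the other stretches. The median distance to the nearest start of a protein-coding transcript was 29.1 kb, against 35.4 kb for the other stretches, 19.9 kb for heart-only and 57.6 kb for carcass-only regions. These shares were not tested, because the regions are not replicates.

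The regions were moderately rich in G and C. Their central 300 bases had a median GC content of 48.0%, against 48.7% for the other null hindbrain stretches, 44.7% for carcass-only regions and 41.7% for all autosomal windows of this length. They held a mean of 5.81 CG dinucleotides, against 5.14 for heart-only regions, 4.53 for carcass-only regions, 6.48 for the other null hindbrain stretches and 7.35 for stretches under peaks of all 9 null libraries, whereas all windows held 2.54. CpG islands, taken as windows of 500 bp with at least 55% GC and an observed over expected CpG ratio of 0.65, were touched by 36 regions (1.53%) and by 2.05% of the other stretches. Of the 2346, 20 held no CG dinucleotide, and all 20 were repeat sequence.

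Short sequence motifs were counted in the central 300 bases, on both strands, as bare letters. The letters TGATTGAC, bound by PBX and MEIS homeodomain proteins, were in 76 regions (3.24%), against 1.44% of the other null hindbrain stretches, 0.767% of heart-only regions, 0.698% of carcass-only regions and 0.705% of all 300 bp windows. The letters ACAATGG, bound by SOX proteins, were in 8.78% of the regions, against 5.73%, 3.61%, 3.99% and 5.18%. The letters GTTGCCA, one arm of the site bound by RFX proteins, were in 5.33%, against 4.24%, 3.65%, 3.39% and 2.75%. For these 3 motifs the hindbrain-only share was the highest of the 5 sets. The same held for TTAGGGTT, the letters of the telomeric repeat, at 1.49% against 0.673%, 0.671%, 0.833% and 1.17%.

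The other letters gave a mixed picture. The motifs differ in GC content, and so do the sets, with medians of 48.0% for the regions, 44.7% for carcass-only regions and 41.7% for all windows. The part of base composition in the motif shares was not tested. AGATAA, bound by GATA factors of heart and blood, was in 7.84% of the regions, against 14.2% of the other null hindbrain stretches, 28.8% of heart-only regions, 13.9% of carcass-only regions and 19.1% of all windows. CTATTTATA, bound by the muscle factor MEF2, was in 3 regions (0.128%) and in 1.21% of heart-only regions. The rule left out stretches under heart and liver peaks, so a low share of motifs common in those tissues may be part of the choice. TAATTA, bound by many homeodomain proteins, was in 6.99%, below the 10.1% of the other null hindbrain stretches, the 10.5% of all windows and the 11.1% of carcass-only regions but above the 3.52% of heart-only regions. CAGCTG, an E-box bound by proneural and other bHLH factors, was in 20.7%, below the 27.3% of the other null hindbrain stretches, near the 21.1% of carcass-only regions and above the 18.5% of heart-only regions and the 10.9% of all windows. CATATG, an E-box of NEUROG and NEUROD factors, was in 5.03%, against 5.47% of the other null hindbrain stretches, 4.47% of heart-only regions, 8.32% of carcass-only regions and 9.30% of all windows. TTGGCA, one arm of an NFI site, was in 15.3%, against 16.3% of the other null hindbrain stretches and 14.4% of all windows. GGAATG, bound by TEAD factors, was in 18.1%, against 19.4% and 15.9%. TTGGCA and GTTGCCA can share bases, since both hold the letters TGCCA on one strand or the other.

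WT peaks, which the rule did not use, split the motif shares further. PBX and MEIS letters were in 3.55% of the 1717 regions without a WT peak, in 3.19% of the 282 under WT hindbrain peaks alone, in 1.26% of the 159 under peaks of other WT tissues alone, and in 2.13% of the 188 under peaks of WT hindbrain and another WT tissue. SOX letters were in 9.38%, 11%, 6.29% and 2.13% of the same classes, and the CAGCTG E-box in 22.0%, 20.9%, 22.0% and 6.91%. The telomeric letters TTAGGGTT were in 0.932%, 0.355%, 0.629% and 9.04%. The class under WT peaks of hindbrain and another tissue thus had fewer SOX and E-box letters and more telomeric letters than the other classes, and 48.9% of it was repeat sequence. Of the 76 regions with PBX and MEIS letters, 36 lay in a protein-coding gene, while 48.1% of all regions did. Tat, a hepatocyte gene, was the only gene of the lists among these genes. A match of letters shows neither binding nor its absence.

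**Figure D4:**
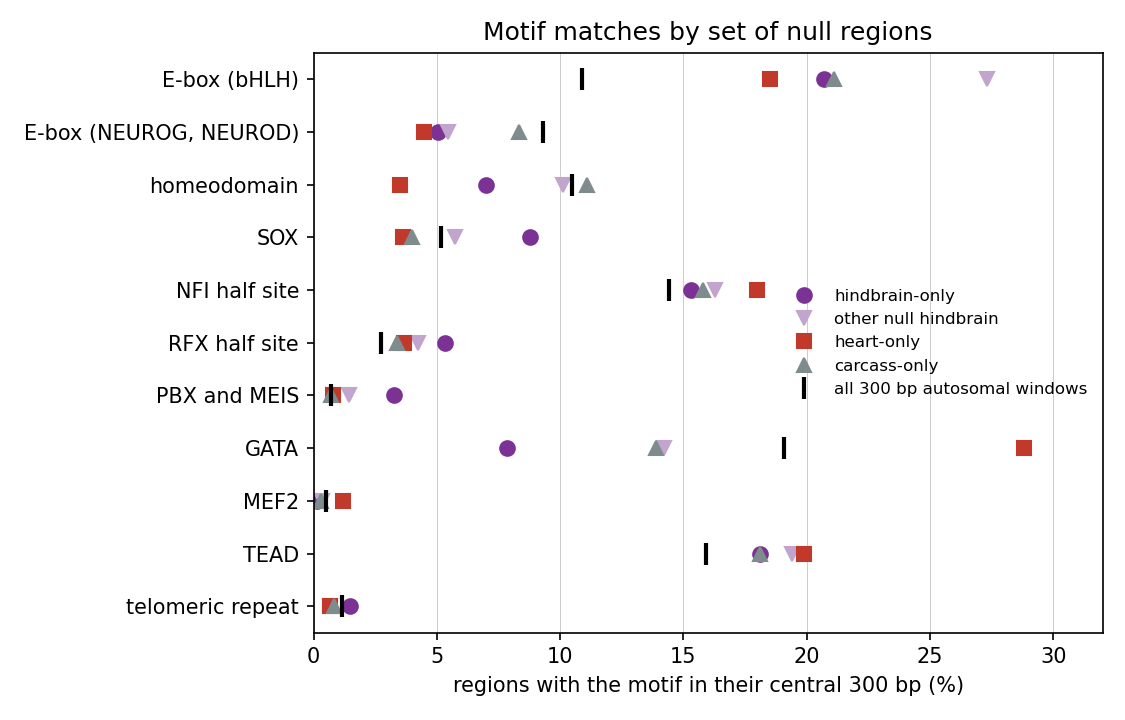
Symbols give the percentage of regions that hold each motif's letters in their central 300 bp, for hindbrain-only regions (purple circles), 3 other sets of null regions and all 300 bp windows of the autosomes (black ticks). Hindbrain-only regions lie furthest right for SOX (8.78%), RFX (5.33%), PBX and MEIS (3.24%) and the telomeric repeat (1.49%). They lie well to the left of heart-only regions for GATA (7.84% against 28.8%).

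Regions were thinly spread over genes. Of 21150 protein-coding autosomal genes with a single annotation, 998 held a region, which is 4.72%. Of these genes, 884 held 1 region, 114 held 2 or more and 23 held 3 or more. No gene reached 5, so no gene was named for its density of regions. The 5 genes with 4 regions were Aff3, Sema6d, Csmd2, Fgfr2 and Gm20388. The annotation gives Fgfr2 and Gm20388 spans of 3009.1 kb and 4434.9 kb that run over other genes, so their counts come with their length.

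Sema6d, a transmembrane semaphorin that guides axons, held 4 regions in 577.8 kb, all in introns. Peaks of WT hindbrains touched 3 of the 4, and no other WT library touched any. Aff3, a nuclear factor of the AF4 family, held 4 in 487.6 kb, of which 3 touched an exon, 1 lay under a WT hindbrain peak and 2 under a peak of another WT tissue. Csmd2 held 4 in 579.8 kb with none under a WT peak. Among the genes with 3 regions, the shortest was Lrrc8c, a subunit of volume-regulated anion channels, with 3 in 93.6 kb, of which 2 lay under WT hindbrain peaks. Ptpn13, a tyrosine phosphatase, held 3 in 173.2 kb. Rimbp2, a presynaptic protein that tethers calcium channels, held 3 in 193.0 kb. Cacnb4, a beta subunit of voltage-gated calcium channels, held 3 in 248.5 kb. Camk4, a calmodulin-dependent kinase, held 3 in 256.7 kb. None of the regions in Ptpn13, Rimbp2, Cacnb4 and Camk4 lay under a WT hindbrain peak, and 1 region each of Ptpn13 and Cacnb4 lay under a peak of another WT tissue. In all, 18 genes held 3 regions.

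Lists of genes of the nervous system and of other tissues were compared by how many of their genes held a region, beside the 4.72% of all genes. Of 49 hindbrain patterning genes, 4 held a region (8.16%). Dbx2, a homeobox gene of interneuron progenitors, held 1 over a coding exon. Lmx1a, which specifies the roof plate, held 1 of 400 bp in an intron. Pax5, a gene of the midbrain-hindbrain boundary, held 1 of 900 bp in an intron, with 39 CG dinucleotides and a peak of another null tissue 100 bp away. None of these 3 lay under a WT peak. Of 38 neural progenitor genes, 2 held a region (5.26%), namely Rfx4, an RFX factor of the neural tube, with 2, and Gli3, a transcription factor of Hedgehog signalling, with 1. The longer Rfx4 region measured 1100 bp over a coding exon, with a peak of another null tissue 100 bp away. The Gli3 region measured 1000 bp over a coding exon, and a WT carcass peak covered 20% of it. With no peak of another null tissue allowed within 1 kb, 1 gene of this list held a region in place of 2, and 745 of all genes did in place of 998.

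Of 39 neuronal differentiation genes, 10 held a region (25.6%). Celf2, an RNA-binding protein, held 3 within 74.9 kb, all in introns and none under a WT peak. Snap25, a SNARE protein of synaptic vesicle release, held 1 of 300 bp in an intron, and no other null hindbrain stretch of 300 bp or more lay in this gene. Elavl4, a neuronal RNA-binding protein, held 1 of repeat sequence that was covered over 100% in WT hindbrains 2 and 3. Of 43 axon guidance genes, 9 held a region (20.9%). Besides Sema6d, the ligand Slit1 held 1 over a coding exon and the adhesion molecule Chl1 held 1. The Chl1 region was fully covered in all 4 WT hindbrains and both WT hearts, and 31.3% of its 31-base words occurred elsewhere.

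Of 40 genes for synaptic adhesion and receptors, 15 held a region (37.5%). Grin2b and Grin2a, subunits of NMDA-type glutamate receptors, held 3 and 2, all in introns, and WT hindbrain peaks touched 2 and 1 of these and no other WT library touched any. Dlgap1, a scaffold of the postsynaptic density, held 3, none of them under a WT peak. Lists for the tissues left out by the rule were counted in the same way. Of 39 heart genes, 4 held 1 each (10.3%), among them the potassium channel Kcnq1 and the sarcomere gene Nebl. Of 33 hepatocyte genes, 4 held 1 each (12.1%), and 2 did where no peak of another null tissue was allowed within 1 kb. At that setting 745 of all 21150 genes held a region, against 998. The heart list kept 4, the synaptic list 15 and the neuronal differentiation list 10, while the axon guidance list had 8 and the hindbrain patterning list 3. The regions of Apoc3, Tat and Afp, which encode an apolipoprotein, a tyrosine transaminase and alpha-fetoprotein, lay over coding exons, and none lay under a WT peak. The nearest peak of another null tissue was 300 bp from the Tat region and 700 bp from the Afp region. Of 37 genes of mesenchyme and muscle, 1 held a region (2.70%), Sox5 with 3, a SOX factor of cartilage that neurons also use.

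The lists differ in gene length, and a longer gene offers more room for a region. The median gene of the synaptic list is 441.1 kb long, that of the neuronal differentiation list 117.3 kb and that of the axon guidance list 188.4 kb, whereas the median over all genes is 15.5 kb. The hindbrain patterning list (7.75 kb) and the hepatocyte list (12.3 kb) have shorter genes than that and still had shares of 8.16% and 12.1%, from 4 genes each. Per Mb of gene body the synaptic list held 0.989 regions, the axon guidance list 1.09, the neuronal differentiation list 1.69 and the hindbrain patterning list 1.99, against 1.20 over all genes. The neural progenitor list held 0.732, the heart list 1.08 and the hepatocyte list 4.27, the last from 4 regions in 0.937 Mb. Each neural list rests on only 3 to 25 regions. The other null hindbrain stretches were densest over the mesenchyme and muscle list (56.9 per Mb), followed by the neural progenitor, neuronal differentiation, hindbrain patterning and axon guidance lists (51.7, 45.4, 41.3 and 36.8 per Mb). The hepatocyte and heart lists (34.1 and 33.3 per Mb) lay closer to all genes (30.5 per Mb), and the synaptic list (17.2 per Mb) lay below them. The lists were chosen with earlier results of these data known, and no test was run on them.

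**Figure D5:**
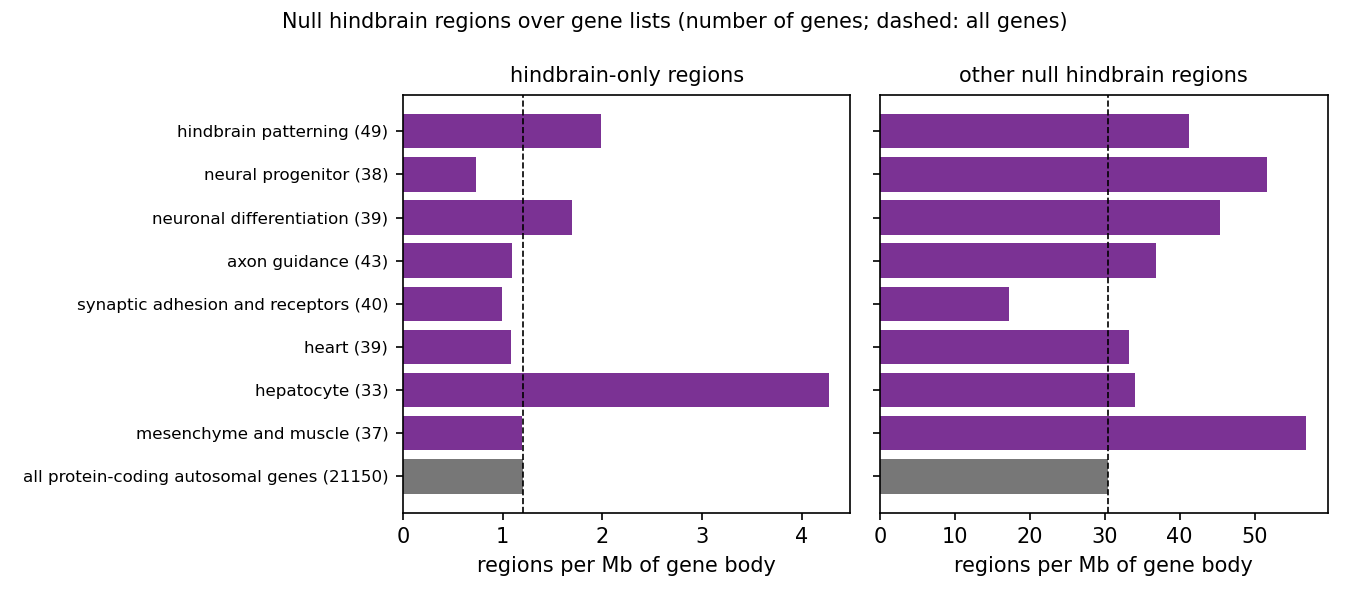
Bars give regions per Mb of gene body for each gene list, hindbrain-only regions on the left and other null hindbrain stretches on the right, and the dashed line is the value over all genes. On the left the neural lists lie between 0.732 and 1.99 around the dashed line at 1.20, and the hepatocyte bar at 4.27 rests on 4 regions.

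The densest group of regions lay at chr5:33068701-33081000, where 4 regions fell within 12.3 kb over Pisd, which encodes phosphatidylserine decarboxylase, and C330019G07Rik. All 4 lay under WT hindbrain peaks and under peaks of another WT tissue. The next 4 groups held 3 regions each. They lay over Vwa3b within 46.3 kb, with 1 region under a peak of another WT tissue, near Tnn within 53.3 kb, with 1 under a WT hindbrain peak, over Celf2 within 74.9 kb, and near Ddx31 and Barhl1 within 91.2 kb. No WT peak touched the regions of the last 2 groups.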

How the data were processed

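The files deposited by the authors are lists of 5fC peak positions (chromosome, start and end in bases, on a grid of 100 bp), 1 per library, with no counts, heights or scores, so depth is unknown and no interval from counting could be given. According to the methods, the authors trimmed reads with Trim Galore, aligned them to NCBIM37 (mm9) with Bowtie2 and called peaks library by library with MACS in SeqMonk. Whether an input sample was subtracted, or duplicate reads taken out, is not given in the sources used here. Reads from repeats can pile up at 1 copy, which could affect the repeat regions.

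Bins of 100 bp under each peak were intersected with Python 3.11.15, numpy 2.4.6 and scipy 1.17.1, and figures were drawn with matplotlib 3.10.9. Groups came from the sample titles. Enrichment is log2 of observed over expected peak bases over 2393726033 ungapped autosomal bases, with observed values below 300 bases set to 300. The enrichment measure, but not the tests, was checked on simulated peaks with a planted enrichment. Tests were exact permutation tests over WT libraries or embryos. Null libraries chose the regions and were not tested. Genes came from GENCODE vM1, with 318 of 329 listed symbols matched. Named regions were the 10 longest and the 10 under most WT hindbrains and no other WT library. Named genes were the 10 with most regions, and the 3 of each list with most, of which 1 is not reported here. Alternatives were other lengths, margins, overlaps and libraries, peak midpoints, each library as a replicate and repeat sequence left out. Members, lists and tests were chosen with earlier results of these data known.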

Additional observations from a re-analysis of the deposited data

How the results depend on the processing

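The number of regions depended most on length and on 2 libraries. It was 428 when at least 600 bp were asked for and 489 when hindbrain peaks of at least 600 bp were asked for, against 2346. Leaving out 1 null library gave 2403 to 4668 regions, with 3843 without null hindbrain 1 and 4668 without null carcass 2. The share of regions in genes, 50.6%, was 64.5% with 10 kb on either side of the gene body.

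Leaving out 1 WT library, the hindbrain difference from other tissues was 2.00 to 3.04 on the log2 scale, the difference against heart-only regions 5.11 to 6.64, that against carcass-only regions 8.0 to 10.12 and that against the other null hindbrain stretches 1.35 to 2.44. No alternative with the embryo as the replicate could reach 0.05. With each library as a replicate the hindbrain difference was 2.49 (exact permutation test of 4 against 6 libraries, p = 0.0667), and without repeat sequence it was 2.34 (exact permutation test, p = 0.00952), but these treat tissues of 1 embryo as independent. Leaving out repeat sequence was chosen after seeing the data. It moved the difference against the other null hindbrain stretches from 1.87 to 0.82, and to 0.44 to 1.20 with 1 WT hindbrain left out as well.

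With regions of at least 600 bp, 197 genes held a region in place of 998. The genes with one fell from 10 to 0 in the neuronal differentiation list, from 15 to 3 in the synaptic list, from 9 to 2 in the axon guidance list, from 4 to 1 in the hindbrain patterning list, from 4 to 2 in the heart and the hepatocyte lists and from 1 to 0 in the mesenchyme and muscle list, and were 2 under both settings in the neural progenitor list. Median GC and CpG content moved by less than the spread between regions. Where the whole region was read, the share of the CAGCTG E-box rose from 20.7% to 27.4%, that of SOX letters from 8.78% to 11.4%, that of GATA letters from 7.84% to 13.5% and that of TAATTA from 6.99% to 11%, whereas that of MEF2 letters stayed at 0.128%. The telomeric letters were in 0.837% of regions without repeat sequence, against 1.49%. No paired analysis was possible because the comparisons between tissues use WT libraries of which hindbrain shares no embryo with the others. The comparison within WT hindbrains sets 2 kinds of region against each other in the same library. Peak positions hold no signal over background, so a peak missed at low depth and an absent peak cannot be told apart.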
